A study of Mus musculus with 87 samples.

Results

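The SoxB and SoxE transcription factors are 8 of the 43346 Ensembl genes in the deposited tables, the SoxB1 genes Sox1, Sox2 and Sox3, the SoxB2 genes Sox14 and Sox21, and the SoxE genes Sox8, Sox9 and Sox10. The members of the family were taken by name and not by any measured value, and each was read from the row whose Ensembl identifier maps to its symbol. RNA-seq had been performed on 64 tissue samples of FVB mouse embryos at E11.5 from 7 lines (B2 to B8), in each of which CRISPR/Cas9 editing had removed 1 boundary between topologically associating domains (TADs), the blocks within which enhancers and genes make most of their contacts. The study asked whether loss of a boundary alters gene expression and development. The 8 genes are described first across the wild-type tissues and then between genotypes.

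Homozygous embryos lacked the boundary on both alleles, and their controls were wild-type embryos of the same strain, taken as littermates according to the study's methods. Line B2 gave heart (4 wild-type and 4 homozygous libraries) and lung (6 and 6). Lines B3 and B5 gave face and heart, B4 gave midbrain and gut, and B8 gave forebrain and neural tube, each with 2 wild-type and 2 homozygous libraries. Lines B6 and B7 gave face (2 and 2) and 2 homozygous hearts each. Wild-type hearts of B6 and B7 were not analysed here, so that their homozygous hearts were set against the 8 control hearts that lines B2, B3 and B5 gave. This made 30 wild-type and 34 homozygous libraries. Each is a piece of dissected tissue with many cell types, so that fewer cells of a type and less RNA per cell cannot be told apart. Sex was given in the labels for the lungs alone.

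Sox proteins bind DNA through an HMG box and are grouped by the likeness of that domain. SoxB1 factors are known for keeping neural progenitors undifferentiated, SoxB2 factors for opposing them as progenitors become neurons, and SoxE factors for the neural crest, glia, cartilage and gonad. Sox2 also acts in foregut and airway epithelium, Sox9 in cartilage, the distal lung buds and the valves of the heart, and Sox10 in neural crest cells and the enteric and peripheral glia that come from them.

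The libraries held 8391553 to 31793440 expected counts. Tissue labels were checked by 4 marker genes each, whose median summed level over wild-type libraries was highest in its own tissue for all 7 tissues. For the gut markers the lungs (136 to 396 CPM) overlapped the guts (206 and 222). Levels are given as CPM, the count of a gene scaled to a common library size with TMM factors over all 64 libraries. The homozygous B5 heart replicate 1 stood apart. Its cardiomyocyte genes summed to 9777 CPM against 13319 to 36448 in the other 19 hearts, while its neuronal genes summed to 672 against 39.4 to 99.3. The same library was the only one with both Xist (142 CPM) and Y-linked genes (59.2 CPM summed), where no other library with high Xist had over 1.32 CPM of the latter. The homozygous B4 midbrain replicate 2 had 371 CPM of forebrain markers against 105 to 129 in the other 3 midbrains, and the wild-type B2 lung replicate 5 had 848 CPM of cartilage genes and 662 CPM of epithelial genes, against at most 279 and 377 in the other 11 lungs. In the wild-type B2 lung replicate 6, 10 genes held 90.1% of the counts (at most 29.7% in the other lungs), its TMM factor was 0.124, and it held only 68 counts of Sox9. The other lungs had factors of 0.676 to 0.929 and the other tissues of 0.853 to 1.2. Leaving out lung replicate 6 changed 1 of 168 member calls between tissues, and leaving out replicate 5 changed 5. When wild-type libraries were scaled by their totals alone, the median log2 difference over all genes between the other tissues and lung moved to between 0.53 and 0.64 (heart to lung 0.25). In pairs without lung or heart it was at most 0.04 in size. Against heart it moved, for the tissues other than lung, to between 0.26 (forebrain) and 0.38 (gut), and between B2 and B3 hearts to -0.26. Differences to lung and heart thus depend on this scaling by about that much.

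The members are compact genes. On mm10 (GENCODE M21 positions) the 5 SoxB genes each have 1 exon, Sox1 at chr8:12395295-12400126, Sox2 at chr3:34650405-34652461 and Sox3 at chrX:60891366-60893430, with Sox14 at chr9:99874106-99876170 and Sox21 at chr14:118233232-118237030. Sox8 at chr17:25565892-25570686 and Sox9 at chr11:112782224-112787760 have 3 exons, and Sox10 at chr15:79154908-79165240 has 5. Exons of Sox21 share 713 bases with the opposite-strand lincRNA Gm4675, and those of Sox8 share 329 bases with the antisense gene 2810468N07Rik. Whether counting used the strand is not given in the sources used here, so the Sox21 and Sox8 values may include reads of these partners, whose median counts per library were 3.42 and 66.5 against 50.2 for Sox21 and 154 for Sox8.

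Promoter windows (250 bases before to 50 after the RefSeq start, GRCm38.p6) were found for 5 of the 8 members, Sox1, Sox2, Sox14, Sox21 and Sox8. Those of 4 SoxB genes are shown because Sox1, Sox2 and Sox21 had nearly the same order of tissues while Sox14 did not. They lie at chr8:12395269-12395568 (plus strand, Sox1), chr3:34649745-34650044 (plus, Sox2), chr9:99876121-99876420 (minus, Sox14) and chr14:118236981-118237280 (minus, Sox21), and are printed 5′ to 3′ along the gene. Capitals mark the SOX-type words ACAAAG or ACAATG and the CCAAT box, on either strand.
Sox1: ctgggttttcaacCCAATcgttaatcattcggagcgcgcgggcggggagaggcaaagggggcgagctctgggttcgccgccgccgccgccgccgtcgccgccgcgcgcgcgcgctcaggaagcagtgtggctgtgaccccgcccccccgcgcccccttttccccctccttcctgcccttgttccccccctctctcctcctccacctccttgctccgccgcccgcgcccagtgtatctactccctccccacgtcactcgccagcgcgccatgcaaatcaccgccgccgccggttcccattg
Sox2: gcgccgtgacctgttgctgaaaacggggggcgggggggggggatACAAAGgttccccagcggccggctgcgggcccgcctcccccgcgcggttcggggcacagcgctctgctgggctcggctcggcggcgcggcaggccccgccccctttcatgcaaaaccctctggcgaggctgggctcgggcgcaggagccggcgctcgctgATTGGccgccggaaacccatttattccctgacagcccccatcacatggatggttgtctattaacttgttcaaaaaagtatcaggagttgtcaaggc
Sox14: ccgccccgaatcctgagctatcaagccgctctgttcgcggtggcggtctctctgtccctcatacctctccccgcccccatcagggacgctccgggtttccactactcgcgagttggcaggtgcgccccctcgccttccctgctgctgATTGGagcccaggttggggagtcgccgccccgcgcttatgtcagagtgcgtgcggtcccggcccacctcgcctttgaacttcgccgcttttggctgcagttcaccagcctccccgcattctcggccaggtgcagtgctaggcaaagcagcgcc
Sox21: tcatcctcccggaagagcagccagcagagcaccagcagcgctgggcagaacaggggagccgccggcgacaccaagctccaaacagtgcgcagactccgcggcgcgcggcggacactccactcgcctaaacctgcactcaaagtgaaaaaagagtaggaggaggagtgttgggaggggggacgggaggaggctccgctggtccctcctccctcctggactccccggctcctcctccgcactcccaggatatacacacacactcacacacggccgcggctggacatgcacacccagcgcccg

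The Sox2 window held 1 ACAAAG, 206 bases before the start, and 1 CCAAT box on the reverse strand 46 bases before it. The windows of Sox1 and Sox14 each held 1 CCAAT box (237 bases before the start, and 103 bases before it on the reverse strand), and that of Sox21 held none of the words in capitals. The GC box GGGCGG, searched on both strands and left in lower case, occurred 3 times in Sox1, 2 times in Sox2, 3 times in Sox14 and 2 times in Sox8, and TATAAA in none of the 5. No 2 of these matches overlapped. Of the 32851 promoter windows of all genes, 18.7% held ACAAAG, 12.6% ACAATG, 37.4% CCAAT, 35.7% GGGCGG and 13.6% TATAAA. All 5 windows were rich in G and C (65.7% to 70.7%, against a median of 52.7% over all windows). A match is a run of letters and not a measured binding site.

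Among the SoxB1 genes Sox1, a marker of committed neural progenitors, was the most restricted in wild-type tissue. Its level was 138 and 166 CPM in the 2 forebrains, 112 and 118 in the 2 midbrains, 12.1 to 53.2 (median 35.2) in the 8 faces and 7.64 and 10.9 in the 2 neural tubes. It had 1 count over both guts, 8 counts over the 8 hearts and 0 counts in each of the 6 lungs, so that forebrain was at least 5231-fold and face at least 1182-fold higher than lung, taking 3 counts over the 6 lungs as the floor. The 2 brain tissues stood above every face, the faces stood above both neural tubes, and gut, heart and lung stood far below. Forebrain and midbrain did not overlap, but their difference did not pass the test (log2 difference 0.40, 95% interval -0.54 to 1.34). The spread in that test was estimated over all 30 wild-type libraries and not from these tissues alone. Midbrain exceeded face by 1.82 (adjusted p = 2.81e-04, edgeR) and face exceeded neural tube by 1.82 (adjusted p = 0.00615). The last of these calls was lost without either neural tube library (adjusted p up to 0.143). In the same fit forebrain exceeded neural tube, both from line B8, by 4.04 ± 0.51 (SE), a fold of 16.5.

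Sox2, which holds progenitors of neural tissue and of foregut epithelium, reached the highest TPM (the authors' transcript abundance, which corrects for length) of the 8 genes in both brain tissues, with medians of 220 in forebrain and 157 in midbrain. In CPM it was 278 and 284 in the forebrains, 176 and 191 in the midbrains, 70.9 and 72.7 in the neural tubes and 34.6 to 81.8 (median 62.7) in the faces. Lower levels were found in the guts (5.94 and 10.4), the lungs (3.66 to 22.1, median 7.31) and the hearts (0.0524 to 8.45, median 1.39). The face exceeded the lung by 2.74 on the log2 scale (adjusted p = 1.49e-06), and gut exceeded heart by 1.89 (adjusted p = 0.00421), a call lost without wild-type gut replicate 1 (adjusted p = 0.11). Forebrain against midbrain (0.61, 95% interval -0.61 to 1.83), midbrain against neural tube, neural tube against face and lung against gut did not pass the test. For midbrain against neural tube the values did not overlap and the log2 difference was 1.36 (adjusted p = 0.164). Without wild-type lung replicate 5 this difference was called (adjusted p = 0.00588).

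Sox3 is the X-linked SoxB1 gene, known for the early nervous system and the pituitary. It followed Sox2 in the brain, with 189 and 205 CPM in the forebrains and 138 and 158 in the midbrains, and then 32.4 and 33.9 in the neural tubes and 15.2 to 49.2 (median 32.7) in the faces. In the hearts it was 8.54 to 29 (median 18.1), with every one of the 8 wild-type hearts above both guts (0.417 and 0.451) and all 6 lungs (0 to 0.254, median 0.111). Sox3 was thus the SoxB1 gene with a heart level near that of face: face exceeded heart by only 0.94 ± 0.14 (SE) on the log2 scale (adjusted p = 2.86e-06) with overlapping values, and by 1.61 within lines B3 and B5 (adjusted p = 6.82e-05), while heart exceeded gut by 5.17 (adjusted p = 9.2e-11) and lung by 6.90 (adjusted p = 8.82e-16). The 12 homozygous hearts held 15.1 to 33.8 CPM (median 21.2). Median TPM in the wild-type hearts was 9.44 for Sox3, 0.63 for Sox2 and 0 for Sox1.

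**Figure D1:**
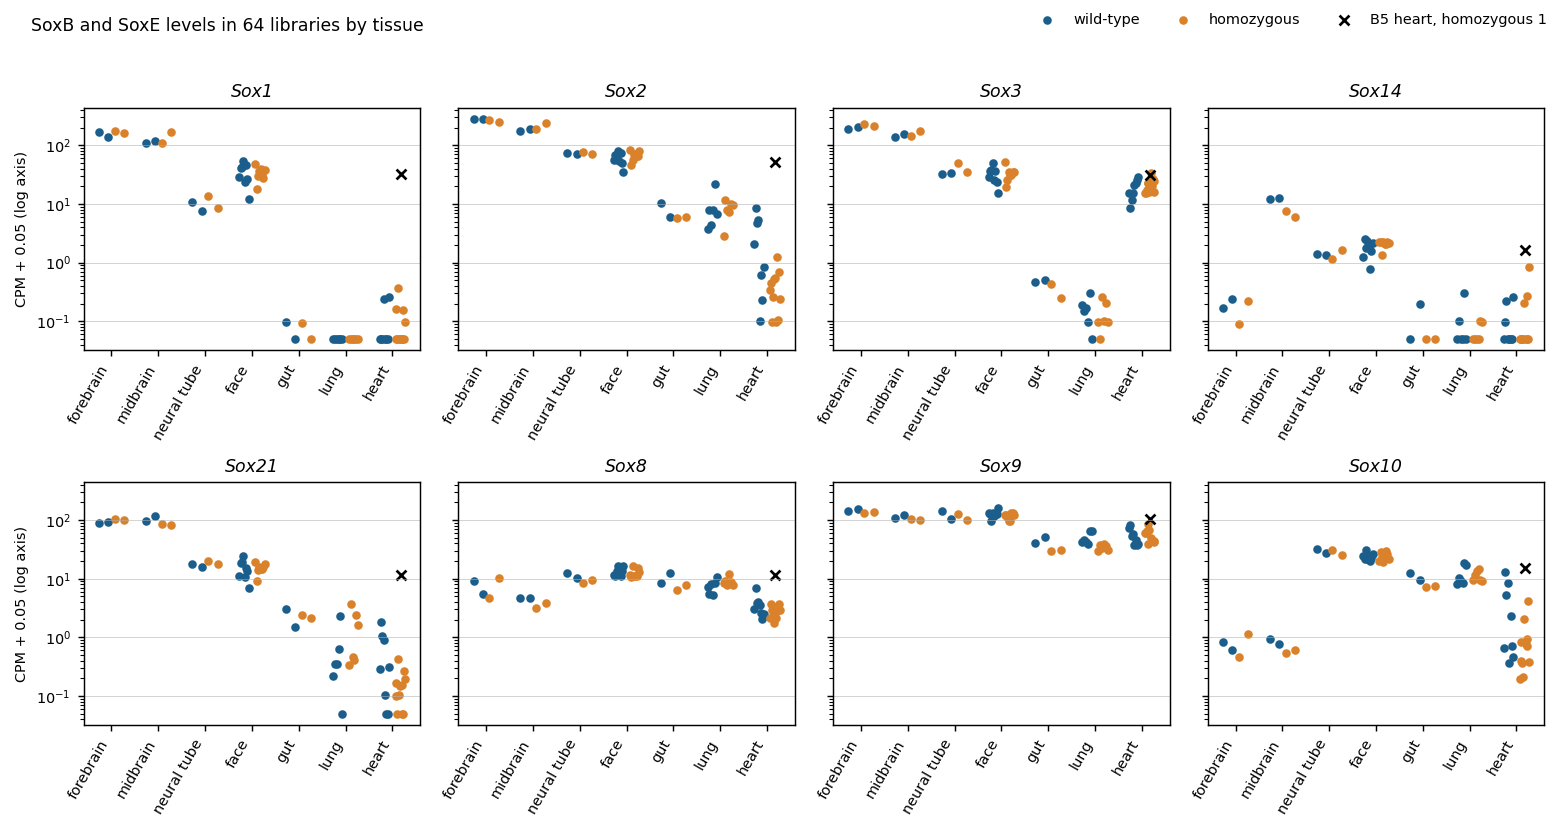
Level of each of the 8 genes in all 64 libraries by tissue (horizontal axis), as CPM + 0.05 on a log axis (vertical), 1 point a library, blue for wild-type and orange for homozygous. The cross is the homozygous B5 heart replicate 1, with 32 CPM of Sox1 where the wild-type hearts reach 0.21, and Sox3 stays at 8.54 CPM or more in every heart while the lungs lie at or below 0.254.

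The SoxB2 genes differed from each other. Sox14, a gene of ventral and midbrain interneurons, was at 12 and 12.8 CPM in the midbrains, 0.737 to 2.5 (median 1.72) in the faces, 1.3 and 1.36 in the neural tubes and only 0.119 and 0.189 in the forebrains. Gut, lung and heart together had 17 counts over 16 libraries. Midbrain stood above every other tissue, by 2.87 on the log2 scale over face (adjusted p = 7.43e-05), by 3.22 over neural tube (adjusted p = 0.00568) and by 6.28 over forebrain (adjusted p = 1.5e-04, a fold of 78). Neural tube exceeded forebrain by 3.06 (adjusted p = 0.0299), which was lost without any 1 of those 4 libraries (adjusted p 0.0944 to 0.218), and midbrain over neural tube was lost without either neural tube library (0.0783 and 0.0791). A fit of line B8 alone gave -3.10 for forebrain minus neural tube (edgeR adjusted p = 0.00335). Since the midbrains came from line B4, tissue and line cannot be told apart in their comparisons with face, neural tube and forebrain.

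Sox21, which counteracts SoxB1 factors during neurogenesis, instead had the pattern of Sox1 and Sox2. The level was 97.2 and 117 CPM in the midbrains, 90.7 and 91.0 in the forebrains, 16.1 and 17.7 in the neural tubes and 6.89 to 24.5 (median 14.2) in the faces. Below these came the guts (1.47 and 2.97), the hearts (0 to 1.78, median 0.25) and the lungs (0 to 2.22, median 0.302). The brain tissues did not pass the test, although their values did not overlap (log2 difference 0.25, 95% interval of forebrain minus midbrain -1.51 to 1.02). Forebrain exceeded neural tube by 2.43 (adjusted p = 0.0125), again lost without any 1 of the 4 libraries. In a fit of line B8 alone it was 2.39 (edgeR adjusted p = 1.24e-05). Face exceeded gut by 2.70 (adjusted p = 0.00174), lost without gut replicate 2 (0.0697), and gut exceeded heart by 2.33 (adjusted p = 0.00529), lost without gut replicate 1 (0.127).

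Among the SoxE genes, Sox8, which acts with Sox9 in the gonad and in glia, was low and even. It ranged from 10.9 to 16.7 CPM (median 12.5) in the faces, was 10.1 and 12.6 in the neural tubes, 8.49 and 12.4 in the guts and 5.25 to 10.6 (median 7.59) in the lungs. The forebrains had 5.44 and 9.24, the midbrains 4.66 and 4.73, and the hearts 2.03 to 6.95 (median 3.29). Neighbouring tissues in this order overlapped, except forebrain and midbrain. None of the 6 neighbouring pairs passed the test (adjusted p 0.125 to 0.921), although gut against lung was called without wild-type lung replicate 5 (adjusted p = 0.0445). The distance from face to heart was 1.80 ± 0.19 (adjusted p = 1.49e-08), with no overlap, and 1.58 within lines B3 and B5 (adjusted p = 6.15e-04).

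Sox9, a driver of cartilage formation, was high in 4 tissues, with 144 and 154 CPM in the forebrains, 96.5 to 160 (median 128) in the faces, 103 and 145 in the neural tubes and 110 and 120 in the midbrains. Lower levels were found in the hearts (37.3 to 83.1, median 49.4), the lungs (38.8 to 65.6, median 43.4) and the guts (41 and 51). The step between the 2 sets, midbrain over heart, was 1.05 on the log2 scale (adjusted p = 1.43e-05) and was called in all 30 fits that left out 1 wild-type library. No pair within either set passed the test, and all 12 pairs between them did. Within the lower set, heart exceeded lung in the fit without wild-type lung replicate 5 (0.33, adjusted p = 0.0092) and in the joint fit of 64 libraries (0.52, adjusted p = 1.92e-06), which also called heart over gut (0.65, adjusted p = 7.96e-05). Within line B2 the sign was the other way (lung over heart by 0.30, adjusted p = 0.154). Every wild-type library had at least 37.3 CPM of Sox9, where the next most even member, Sox8, had at least 2.03.

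Sox10, a neural crest and glial gene, ran opposite to Sox1 between the dissected brain tissues and neural tube. It was at 27.1 and 32 CPM in the neural tubes and 19.9 to 31.1 (median 23.4) in the faces, followed by the lungs (8.18 to 18.1, median 9.72) and the guts (9.32 and 12.4). The hearts covered 0.315 to 13.1 CPM (median 1.44), and the midbrains (0.719 and 0.88) and forebrains (0.567 and 0.79) were lowest. In the fit of all wild-type libraries Sox10 was 43.3 times lower in forebrain than in neural tube, both from line B8 (log2 difference -5.44 ± 0.89, adjusted p = 1.27e-04). Neural tube and face did not differ (0.30, 95% interval -0.81 to 1.41). Heart exceeded midbrain by 2.12 (adjusted p = 0.0195), but this rested on wild-type B3 heart replicate 2 among others, without which it was 0.96 (adjusted p = 0.143). Face over lung (1.08, adjusted p = 0.0265) and gut over heart (1.63, adjusted p = 0.0198) were also lost without some of their libraries, 4 of the 6 lungs in the first case and either gut in the other (adjusted p up to 0.154).

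**Figure D2:**
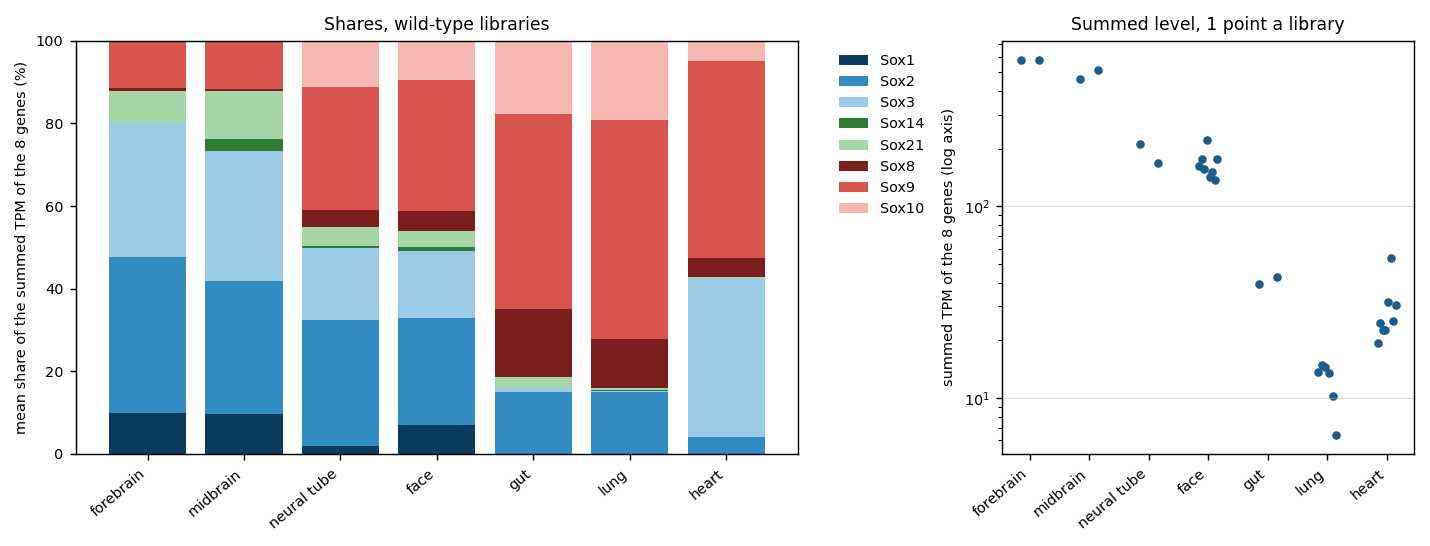
Left, mean share of each gene in the summed TPM of the 8 genes (vertical axis, %), by tissue in wild-type libraries, with SoxB1 in blue, SoxB2 in green and SoxE in red. Right, the summed TPM itself on a log axis, 1 point a library, which falls from a median of 582 in forebrain to 13.5 in lung.

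The levels per length show how the mix of the 3 subgroups shifted between tissues. SoxB1 took a median of 80.1% of the summed TPM of the 8 genes in forebrain and 73.4% in midbrain, 49.8% in neural tube, 50.7% in face, 15.8% in gut and 13.6% in lung. SoxE took 12.3% and 12.2% in forebrain and midbrain, 45.1% in neural tube, 44.5% in face, 81.5% in gut and 85.9% in lung. The heart departed from the other visceral tissues, with 42.2% SoxB1, of which Sox3 alone made 38.2%, and 57.4% SoxE, of which Sox9 made most (46% of the whole). SoxB2 stayed at 14.4% or less, reached in midbrain. The summed TPM fell from 582 in forebrain and 489 in midbrain to 190 in neural tube, 159 in face, 41 in gut, 24.9 in heart and 13.5 in lung. These shares come from within a library and do not depend on scaling between libraries, whereas gut and lung stood further apart in TPM than in CPM (Sox9 was at a median of 7.54 TPM in lung and 19.5 TPM in gut, but at 43.4 and 46.0 CPM). The cause of that gap was not tested.

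Over the 21 pairs of wild-type tissues, 123 of 168 tests of the members were called (73.2%), against 35.4% of all gene tests in the same fit, and 99 of these calls were lost in none of the 30 fits that left out a library. The calls numbered 19 of 21 for Sox3, 18 for Sox21, 17 each for Sox1 and Sox2, 16 for Sox10, 14 for Sox14, 12 for Sox9 and 10 for Sox8. The members most often called were thus the SoxB genes with a brain to viscera range, and those least often called were Sox8 and Sox9.

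Among the neural tissues and the face, most pairs that involved a brain tissue had 6 or 7 members called. Forebrain against midbrain gave 1 call, Sox14 (background 4.82% of 17784 genes), forebrain against neural tube 6 (12.9%), midbrain against neural tube 6 (12.9%) and neural tube against face 1, Sox1 (10.8%). Against face, forebrain gave 7 calls (23.3%) and midbrain 7 (28.1%). In the first of the neural tube contrasts Sox1, Sox2, Sox3 and Sox21 were higher in forebrain by 4.04, 1.97, 2.57 and 2.43 on the log2 scale, and Sox14 and Sox10 were lower. Sox2 (adjusted p = 0.0327) was lost there without any 1 of the 4 libraries, while its log2 difference stayed between 1.95 and 1.99 over all 30 fits. A fit of line B8 alone, with its own estimate of the spread, called the same 6 members. There Sox2 was at 1.93 and Sox21 at 2.39 (edgeR adjusted p = 1.24e-05 for each), and Sox14 at -3.10 (edgeR adjusted p = 0.00335). In midbrain against neural tube Sox8 was lower by 1.27 (adjusted p = 0.0162), and this call and that of Sox21 (2.67, adjusted p = 0.00689) were each lost without 3 of the 4 libraries (adjusted p up to 0.139 and 0.0848).

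The pairs of a visceral tissue with a neural tissue or face were called for 6 to 8 members. The background was 31.7% for forebrain against gut, 47% against lung and 53.6% against heart (6, 6 and 7 members called). For midbrain it was 34.4%, 49.5% and 53.6% (8, 7 and 7 members), for neural tube 18.6%, 38.8% and 44.5% (6, 7 and 8) and for face 28.9%, 54.5% and 59.5% (6, 8 and 8). The call that changed most often was Sox10 in neural tube against lung (1.38, adjusted p = 0.0484), lost in 23 of 30 fits without 1 library (adjusted p up to 0.209) and by DESeq2 (0.0759). In midbrain against gut, both from line B4, Sox1, Sox2, Sox3, Sox14, Sox21 and Sox9 were higher in midbrain and Sox8 (by 1.15, adjusted p = 0.0123) and Sox10 (by 3.75, adjusted p = 0.00116) higher in gut. The Sox8 call was lost without either midbrain or gut replicate 2, and with scaling by totals alone those of Sox8 and Sox9 were both lost (adjusted p = 0.174 and 0.095). A fit of line B4 alone called all 8 members, with Sox8 at -1.15 (edgeR adjusted p = 0.00891).

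Between visceral tissues fewer members were called. Gut against lung gave 2 (36.6%), Sox3 and Sox21, of which Sox3 (1.73, adjusted p = 0.00532) was lost without gut replicate 2 (0.0532) and Sox21 (1.75, adjusted p = 0.0336) without gut replicate 1 or any of 4 lungs (up to 0.331). Gut against heart gave 5 (36.1%) and lung against heart 4 (64.1%). In the last pair Sox2 (by 2.03 on the log2 scale), Sox8 (0.94) and Sox10 (1.70) were higher in lung and Sox3 (6.90) higher in heart, with overlapping values except for Sox3. These values give the hearts of 3 lines equal weight against lungs of B2. Within line B2 alone the differences were larger, 4.45 for Sox2, 1.45 for Sox8, 3.67 for Sox10 and -7.52 for Sox3, lung minus heart (adjusted p at most 3.98e-04). The call of Sox8 was lost with scaling by totals alone (0.55, adjusted p = 0.149).

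Marker lists moved in the same pairs, and their part in the results was not tested. In forebrain against neural tube 5 of 10 neural progenitor genes were called higher and none lower (median log2 difference 1.11), and 7 of 12 neural crest and peripheral glia genes lower (median -3.07, among them Foxd3 and Erbb3), where the median of all genes was 0.00. The neural tubes also held more RNA of non-neural lists. Cardiomyocyte genes summed to 362 and 343 CPM there against 12.1 and 11.6 in the forebrains, and cartilage genes to 654 and 875 against 318 and 355. In forebrain against midbrain, 7 of 8 genes of the V2 interneuron list were called lower (median -3.86), led by Tal2, Foxn4, Gata2 and Gata3. The list did not move as 1 in midbrain against neural tube. Among its 4 largest calls there, Tal2 (8.18), Foxn4 (4.40) and Gata3 (2.22) were higher in midbrain and Lhx3 (-3.82) lower. The list is therefore not read as V2 cells in midbrain. All 10 neuronal and all 10 neural progenitor genes were higher in midbrain than in gut (medians 4.72 and 4.05). In lung against heart, 9 of 12 genes of foregut and surface epithelium were higher in lung (median 2.13) and all 10 cardiomyocyte genes lower (median -8.73). The neural crest list summed to 391 and 424 CPM in the neural tubes, 219 to 290 in the faces, 202 to 242 in the lungs, 165 and 191 in the guts, 113 to 208 in the hearts and 102 and 125 in the forebrains, the same order as Sox10 except for the midbrains (262 and 266 CPM, with Sox10 below 0.9).

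Of the 11 other Sox genes, 10 could be tested across tissues. In forebrain against neural tube 2 of them (Sox6 and Sox5) were called higher and none lower, in midbrain against gut 3 higher and 2 lower, in face against heart 5 higher and 1 lower, and in lung against heart 5 higher and 1 lower. Their median log2 differences lay between -0.37 (midbrain against neural tube) and 0.92 (lung against heart) over the 6 pairs examined most closely.

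Over the 30 wild-type libraries the levels of Sox1, Sox2 and Sox21 ran together, with Pearson correlations of log2(CPM + 1) of 0.96 for Sox1 and Sox21, 0.95 for Sox2 and Sox21 and 0.91 for Sox1 and Sox2. Sox3 was further off (0.78 with Sox1 and 0.55 with Sox2), Sox8 and Sox10 were at 0.81, and Sox3 and Sox10 at -0.32. These are descriptions over libraries that share tissue and line, and carry no test. The gene most like each member among 13392 genes with a mean of at least 1 CPM was Pou3f3 for Sox1 (0.98), Msi1 for Sox2 (0.97), Stmn4 for Sox3 (0.96), Dmbx1 for Sox14 (0.96), Adgrb1 for Sox21 (0.99), Antxr1 for Sox8 (0.90), Sec22c for Sox9 (0.93) and Foxd3 for Sox10 (0.97). Next came Pantr1 and Hes5 for Sox1, Cdk5r1 and Marcks for Sox2, Sall3 and Phactr3 for Sox3, Galnt9 and Foxn4 for Sox14, Lhfpl4 and Rnf165 for Sox21, Hpse2 and Epb41l4b for Sox8, Ick and Cacna1e for Sox9 and Meox2 and Msc for Sox10 (all 0.89 to 0.98). In the 33 homozygous libraries without B5 heart replicate 1 the same 24 pairs had correlations of 0.82 to 0.99.

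Homozygous and wild-type tissue was compared in 14 line and tissue combinations, to which the members contributed 92 tests, since 20 of 112 fell under the filter on low counts. No member was called by edgeR in any of them, and the lowest adjusted p of a member was 0.284. DESeq2 called 2, both Sox2 (B3 heart and B6 heart). At an unadjusted p under 0.05 stood 14 of the 92 tests (15.2%), against 7.41% of 211544 gene tests, and 21 gene tests in all were called. The share of genes called was 0% for B2 heart, B2 lung, B3 heart, B4 gut, B5 face, B5 heart, B6 heart, B7 heart and B8 forebrain. It was 0.0131% for B3 face, 0.00677% for B4 midbrain, 0.0723% for B6 face, 0.0329% for B7 face and 0.0132% for B8 neural tube. The difference between the effects in both tissues of a line was tested in B2, B3, B4, B5 and B8 and was called by edgeR for no member (6 of 38 tests had an unadjusted p under 0.05, and DESeq2 was not run on it), with 0.0311% of genes called in B3 and 0% in the others.

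**Figure D3:**
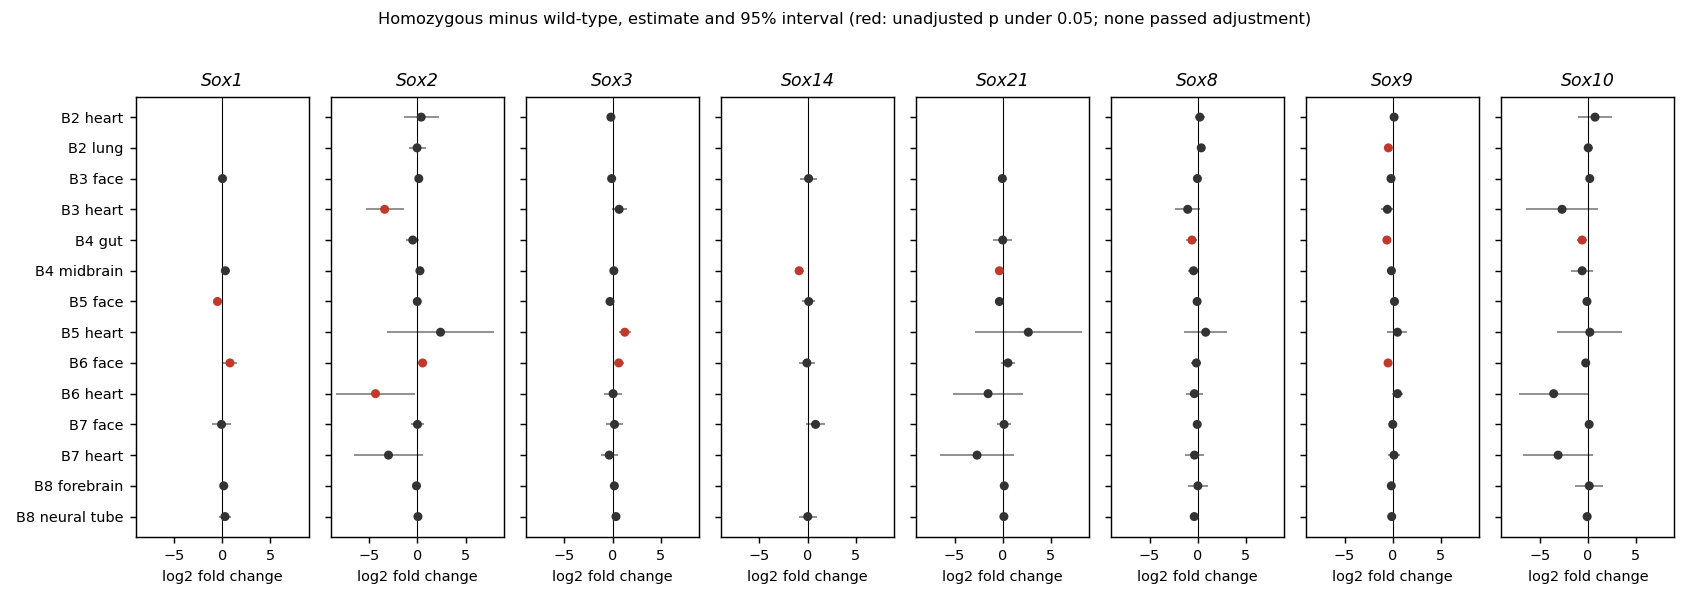
Log2 fold change of each member, homozygous minus wild-type (horizontal axis), with its 95% interval as a line, in the 14 line and tissue combinations (rows), for the combinations in which it was tested. Red marks an unadjusted p under 0.05, which 14 of 92 tests had, and none passed adjustment. The widest intervals are those of Sox2, Sox21 and Sox10 in hearts.

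The B6 face held the most of these, 4 of 8 members, against 8.65% of all genes there. The SoxB1 genes were above and Sox9 below the wild-type level. Sox1 was at 30 and 36.8 CPM in the homozygous faces and 26.2 and 12.1 in the wild-type faces (log2 fold change 0.79, 95% interval 0.04 to 1.55). Sox2 was at 57 and 68.6 against 50.9 and 34.6 (0.54, 0.09 to 1.00), and Sox3 at 25.7 and 35.3 against 23.4 and 15.2 (0.65, 0.10 to 1.20). Sox9 was at 112 and 95.2 against 127 and 160 (-0.49, -0.84 to -0.14). Groups of 2 libraries often separate by chance, so the lack of overlap for all 4 carries little weight. Of all 16 faces 1 library, wild-type replicate 2, had the lowest Sox1, Sox2 and Sox3 and the highest Sox9. Adjusted p-values were 0.439 to 0.55. Without the filter on low counts all 4 were called (621 genes called in all). Without wild-type replicate 1, which leaves that library as the only control, Sox1, Sox2, Sox3 and Sox21 were called (1.47, 0.86, 1.01 and 1.11), and without homozygous replicate 1 Sox3 was (0.86, adjusted p = 0.0481). Neural progenitor genes summed to 613 and 623 CPM in homozygous and 571 and 540 in wild-type faces, and cartilage genes to 593 and 434 against 863 and 1052, with 2 of 10 tested cartilage genes called lower (Acan and Matn4, list median -1.13). Mitochondrially encoded genes summed to 5543 and 4133 CPM against 9949 and 8875, with 3 of 15 called lower. The part of these in the result was not tested.

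After these values were seen, the relation of SoxB1 genes to neural progenitor genes was examined over all 16 faces of B3, B5, B6 and B7. Pearson r on the log2 scale was 0.68 for Sox1, 0.76 for Sox2 and 0.86 for Sox3, and Spearman rho was 0.78, 0.81 and 0.92. Sox9 with cartilage genes had r = 0.72 (0.49 without the 2 libraries farthest from the median). These values include the B6 faces that prompted the question, so the test was run on the 12 faces of the other 3 lines alone. There r was 0.58, 0.68 and 0.83 for Sox1, Sox2 and Sox3, and rho was 0.71, 0.69 and 0.87. In an exact two-sided permutation test within each line, adjusted over 6 relations, p was 0.239, 0.192 and 0.134 for r and 0.162, 0.174 and 0.0716 for rho. Unadjusted, Sox3 had an exact permutation p of 0.0224 for r and 0.0119 for rho. Sox9 with cartilage genes was at r = 0.46 and rho = 0.29 (adjusted exact permutation p = 0.27 and 0.593). Sox9 with neural progenitor genes (r = 0.17, rho = 0.10) and Sox10 with neural crest genes (r = 0.26, rho = 0.19) had an adjusted exact permutation p of 0.399 for r and 0.628 for rho. None of the 6 relations passed without the B6 faces.

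**Figure D4:**
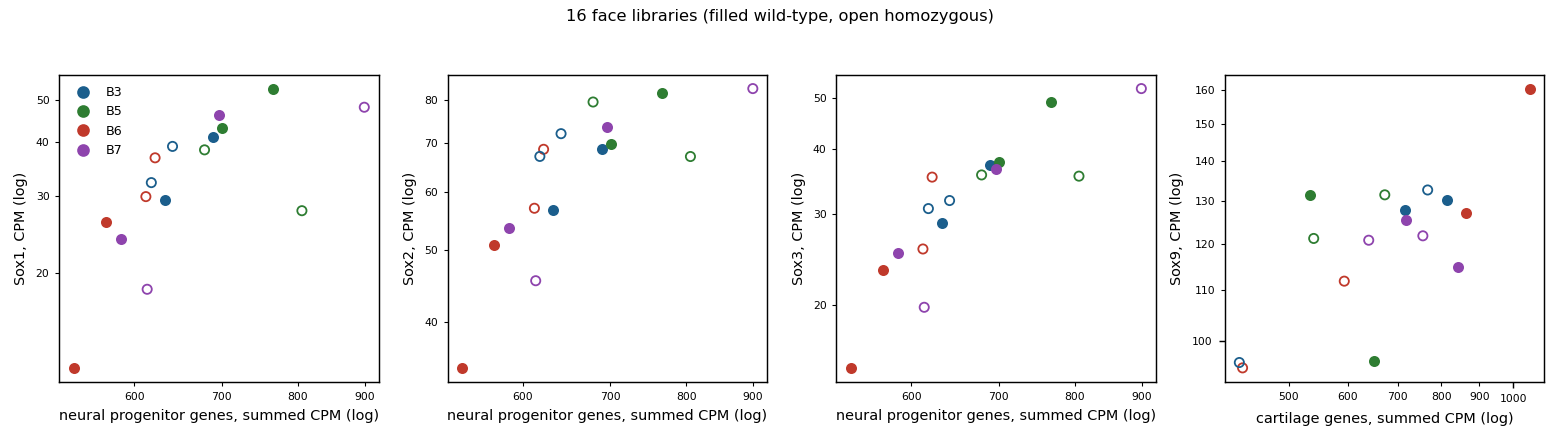
The 16 face libraries, with summed CPM of a marker list on the horizontal axis and CPM of the gene on the vertical axis, both log axes, coloured by line, filled for wild-type and open for homozygous. Pearson r is 0.68 for Sox1, 0.76 for Sox2 and 0.86 for Sox3 with the neural progenitor genes, and none of these passed a test without the B6 faces. The wild-type B6 face replicate 2 lies at the lower left of the first 3 panels (12.1 CPM of Sox1) and at the upper right of the Sox9 panel (160 CPM).

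In the B4 gut 3 of the 5 members tested stood at an unadjusted p under 0.05, against 6.9% of all genes. They were the SoxE genes, all lower in homozygous tissue. Sox9 was at 29.2 and 31.3 CPM against 41 and 51 (log2 fold change -0.61, 95% interval -0.96 to -0.26), Sox8 at 6.27 and 7.63 against 8.49 and 12.4 (-0.60, -1.17 to -0.03), and Sox10 at 7.03 and 7.43 against 12.4 and 9.32 (-0.59, -1.09 to -0.10). Adjusted p-values were 0.374, 0.692 and 0.621. Sox9 alone was called without the filter (adjusted p = 0.0082) and without wild-type replicate 1 (-0.76, adjusted p = 0.0191), where 1 control remains. In the same libraries cartilage genes summed to 137 and 137 CPM against 217 and 168, neural crest genes to 153 and 153 against 191 and 165, epithelial genes to 426 and 443 against 379 and 301, and liver genes to 8117 and 5555 against 5029 and 5231. Neuronal genes summed to 68 and 76.5 CPM against 157 and 85.7 (median of the list -0.96). The part of these lists was not tested.

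In the B4 midbrain the SoxB2 genes were lower, Sox14 at 7.54 and 5.88 CPM against 12 and 12.8 (-0.88, 95% interval -1.33 to -0.42) and Sox21 at 84.4 and 83.3 against 97.2 and 117 (-0.34, -0.61 to -0.08), both with an adjusted p of 0.668. They were the 2 of 8 members at an unadjusted p under 0.05 there, against 7.25% of all genes. Sox14 was the member with the largest difference between homozygous and wild-type tissue outside the hearts. Without homozygous replicate 1 it was called (-1.06, adjusted p = 0.0403), and so was Sox1 (0.59, adjusted p = 0.0253). That fit leaves the homozygous library with forebrain markers (371 CPM) and the lowest midbrain markers (185 CPM against 276 in the other homozygous library and 322 and 381 in the wild-type libraries). That library also had the highest Sox1 (171 CPM against 112 to 118), Sox2 (242 against 176 to 193) and Sox3 (175 against 138 to 158) of the 4. Genes of the V2 interneuron list summed to 276 and 172 CPM against 340 and 272 (median of the list -0.64). Neuronal genes as a whole were lower too, at 2846 and 2363 CPM against 3293 and 3264 (median of the list -0.41). The part of tissue content was not tested.

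Smaller differences of this kind were Sox1 in B5 face (27.8 and 38.4 CPM against 43.1 and 53.2, log2 fold change -0.51, 95% interval -0.92 to -0.09, adjusted p = 0.999) and Sox9 in B2 lung (29.1 to 39.2 CPM, median 35, against 38.8 to 65.6, median 43.4, -0.46, -0.77 to -0.14, adjusted p = 0.89). In B5 face Sox1 was called in no other fit, and without wild-type replicate 2 Sox9 was (0.42, adjusted p = 0.0256). In B2 lung the highest Sox9 was in wild-type replicates 5 and 6 (63.9 and 65.6 CPM, the latter from 68 counts). The code in their titles is carried by 3 wild-type lungs and 1 homozygous lung, so it does not set these 2 apart. The fold change was -0.34 without replicate 5 and -0.37 without replicate 6. The remaining 4 wild-type lungs (38.8 to 44.9) overlapped the homozygous range (29.1 to 39.2) only at its upper end. In B8, where forebrain and neural tube were compared, the fold changes of all members lay between -0.36 (Sox8, neural tube) and 0.36 (Sox3, neural tube), in B3 face between -0.18 and 0.20, and in B7 face between -0.09 (Sox1) and 0.83 (Sox14), of which none had an unadjusted p under 0.05. For Sox1, Sox2, Sox3 and Sox21 the 2 homozygous B7 faces lay on either side of their controls, whereas Sox14 was at 2.17 and 2.18 CPM against 0.737 and 1.71. Without homozygous replicate 1 Sox1 (-0.97), Sox2 (-0.51) and Sox3 (-0.67) were called lower, and without replicate 2 Sox3 (0.75) and Sox21 (0.59) were called higher. Sox2, for example, was at 82.9 and 45.5 CPM against 53.6 and 73.5 (0.00, 95% interval -0.62 to 0.63). In B8 neural tube Sox3 was called without homozygous replicate 2 (0.60, adjusted p = 0.0136). The 5 members tested in B2 heart lay between -0.17 (Sox3) and 0.75 (Sox10).

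Hearts gave the largest fold changes and the widest intervals. In B3, Sox2 was at 0.472 and 0.504 CPM in homozygous and 2 and 8.45 in wild-type hearts (-3.41, 95% interval -5.38 to -1.44, adjusted p = 0.524 by edgeR and 0.00514 by DESeq2). In B6, homozygous hearts had 0.0485 and 0.214 CPM of Sox2 against 0.0524 to 8.45 (median 1.39) in the 8 wild-type hearts of other lines (-4.36, -8.47 to -0.26, adjusted p = 0.284 and 0.0451), with overlap. The homozygous B7 hearts, at 0.295 and 0.397 CPM, gave -3.01 (-6.59 to 0.57). Against the B2 controls alone Sox9 was called in B6 (0.94) and Sox9 and Sox3 in B7 (0.56 and -0.73), and against the B5 controls alone Sox2 and Sox10 in B6 (-5.22 and -4.37) and Sox2, Sox21 and Sox10 in B7 (-3.86, -3.46 and -3.94), so that the choice of control line decides these calls. Epithelial genes of the foregut and surface list had medians of -5.17 in B3 heart and -4.84 in B6 heart, and neural crest genes -1.31 and -1.99, where the median of all genes was 0.00 and -0.09. Without wild-type replicate 1 the B3 value was -4.10 and was called (adjusted p = 0.0288). That fit has replicate 2 as its only control, the wild-type heart with the highest Sox2 and Sox10 and the highest neuronal sum (99.3 CPM).

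Sox3 in the B5 heart was higher in both homozygous hearts (31.8 and 33.8 CPM) than in the wild-type hearts (11.6 and 15.2), with a log2 fold change of 1.28 (95% interval 0.67 to 1.90, adjusted p = 1.00). Homozygous replicate 2 was the highest of all 20 hearts. In the joint fit of 64 libraries the change was called (1.29, adjusted p = 0.0196), and so was Sox1 (7.21). Sox3 is X-linked, and in these hearts wild-type replicate 1 had Y-linked genes, wild-type replicate 2 and homozygous replicate 2 had Xist, and homozygous replicate 1 had both. The part of sex and of the other tissue in homozygous replicate 1 was not tested. The other 7 members in homozygous replicate 1 were 32 CPM (Sox1), 52.3 (Sox2), 1.59 (Sox14), 11.7 (Sox21), 11.7 (Sox8), 106 (Sox9) and 15.1 (Sox10), and in replicate 2 were 0, 0.0483, 0, 0, 2.12, 49.4 and 0.724. When replicate 2 was left out, so that replicate 1 was the only homozygous heart, 6 members were called, among them Sox1 (8.19), Sox2 (3.39) and Sox3 (1.23).

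The wild-type hearts were therefore compared between lines. B2 against B3 had 6 members called (36.1% of all genes), B2 against B5 4 (26.7%) and B3 against B5 0 (0.00562%, 1 member at an unadjusted p under 0.05). Sox2 was at 0.0524, 0.569, 0.179 and 0.786 CPM in the 4 B2 hearts, 2 and 8.45 in B3 and 4.65 and 5.22 in B5, lower in B2 by 3.65 ± 0.68 and 3.58 ± 0.69 on the log2 scale (adjusted p = 2.93e-04 and 6.76e-04). Sox3 ran the other way, at 21, 23.2, 26.1 and 29 CPM in B2, 15.2 and 8.54 in B3 and 11.6 and 15.2 in B5 (1.11 ± 0.24 and 0.92 ± 0.24, adjusted p = 0.00112 and 0.00671). Both genes separated B2 from the other 2 lines without overlap, in opposite directions.

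Sox10 was at 0.315, 2.22, 0.658 and 0.419 CPM in B2, 0.62 and 13.1 in B3 and 5.24 and 8.46 in B5 (-2.90 ± 0.67 for both contrasts, adjusted p = 0.00196 and 0.00303). Sox21 was lower in B2 by 3.49 and 3.35 (adjusted p = 0.0112 and 0.023), Sox9 by 0.93 against B3 (37.3, 45.4, 37.6 and 38.9 CPM against 73.4 and 83.1, adjusted p = 7.12e-04), and Sox8 by 0.87 against B3 (adjusted p = 0.0299). Much of the B3 contrast came from wild-type B3 replicate 2. Without it Sox10 turned to 0.58 higher in B2 (adjusted p = 0.651), Sox2 was -2.25 (0.0641), Sox3 0.76 (0.0696), Sox21 -1.41 (0.575) and Sox8 -0.12 (0.867), and 5 of 24 tests over the 3 contrasts were called against 10 with it. In B2 against B5, Sox3 was lost without B5 replicate 1 (0.74, adjusted p = 0.125), Sox10 without B5 replicate 2 (-2.51, 0.0554), and Sox21 without any 1 of 5 libraries (0.0518 to 0.101). Cardiomyocyte genes were called higher in B2 for 7 of 10 (against B3) and 6 of 10 (against B5), epithelial genes lower for 8 and 9 of 12 and neural crest genes lower for 5 and 5 of 12. Their part in the differences was not tested, and line and dissection cannot be told apart.

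**Figure D5:**
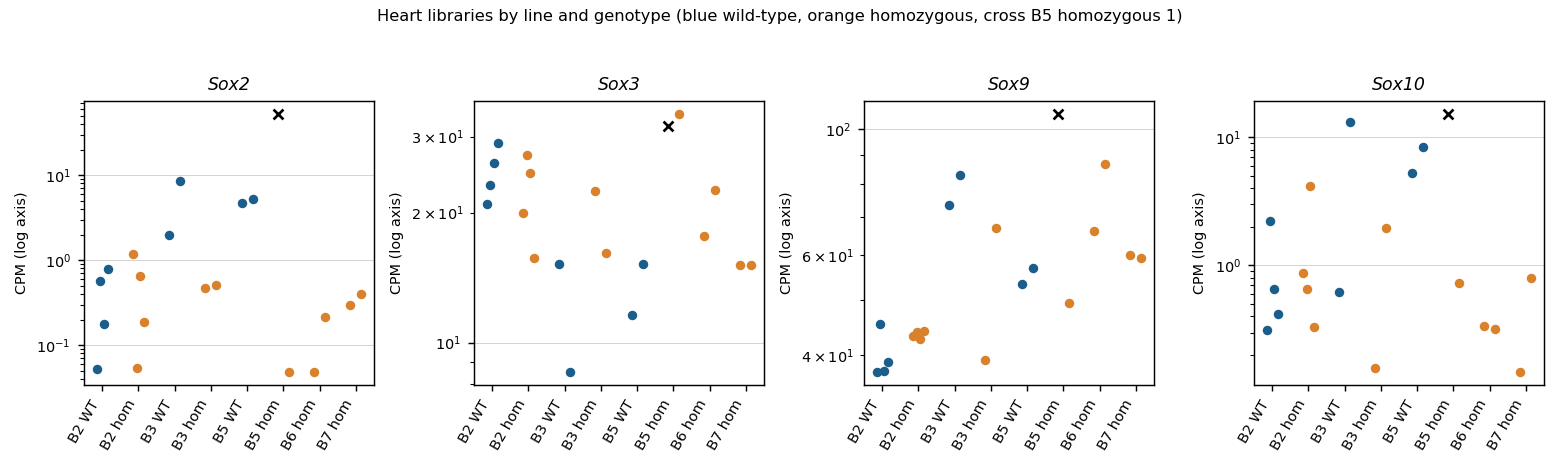
CPM (log axis) of Sox2, Sox3, Sox9 and Sox10 in the 20 heart libraries, by line and genotype, blue for wild-type, orange for homozygous and a cross for homozygous B5 replicate 1. Sox2 is below 2 CPM in all 8 B2 hearts and at 2 CPM or more in the 4 wild-type hearts of B3 and B5, while Sox3 is above 8 CPM in each of the 20.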

How the data were processed

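RNA-seq of 64 tissue samples was analysed, and 23 Hi-C samples were not used. According to the study's methods the authors aligned reads of 150 bases to mm10 with STAR and quantified genes with RSEM, and the deposited tables hold an expected count and a TPM (abundance corrected for transcript length) for each of 69690 entries, 1 table a library. The strand setting of counting and the library kit are not given in the sources used here. Expected counts were rounded to whole numbers for the tests, and TPM was used as deposited for levels between genes. Titles of the B2 lungs carry 3 codes, each shared by lungs of both genotypes, whose meaning the labels do not give. For the other tissues nothing says whether libraries came from separate litters, so p-values measure the spread between these samples. No pair of replicate libraries held identical values or agreed within counting noise (lowest chi-square per gene 6.26 over 64 pairs).

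The members follow from family names alone, but the family as a subject and the gene lists were chosen with earlier results of these data known. Each homozygous group was compared with its wild-type group by edgeR 4.0.16 (quasi-likelihood test, filterByExpr, TMM) in R 4.3.3. Tissues were compared in 1 fit of the 30 wild-type libraries, with a group for each line and tissue and equal weight for each line. All tissue pairs in it share 1 estimate of the spread of a gene. P-values were adjusted by Benjamini-Hochberg over all genes tested, and a call means an adjusted p under 0.05. Tissue and line cannot be told apart except between forebrain and neural tube (B8), midbrain and gut (B4), lung and heart (B2) and face and heart (B3 and B5), where the averaged fit still mixes lines and values within the line are given beside it. A member is given with values per library in a genotype comparison where its unadjusted p was under 0.05, and otherwise within a range. For each member the 3 genes with the highest correlation were named, and lists are given by counts, with at most 4 genes named. The fits were tested on simulated data with known changes. Alternatives were DESeq2 1.42.0, RLE size factors, no filter, a joint fit of all 64 libraries, library totals alone, title code or sex as a term in the lungs, the line alone where it gave both tissues, other heart controls and leaving out each library in turn. Promoter windows are from RefSeq (GRCm38.p6), and gene positions from GENCODE M21 on mm10, whose Sox2 start differs from that of RefSeq.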

Additional observations from a re-analysis of the deposited data

Results flagged for a closer look

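In groups of 4 to 10 libraries, the gap between an extreme value and its nearest neighbour was set against the whole range of the group (Dixon's ratio), which chance alone passes in about 5 percent of groups. Each of the 18 tests was of 1 member in 1 group, all from the hearts and lungs of B2, so the tests share libraries and are not independent. Of the 18, 4 passed. Sox8 in the homozygous B2 hearts was at 3.65 CPM in replicate 3, with the nearest of the other 3 at 2.93 (ratio 0.831). The same library had the highest Sox10, at 4.19 CPM against 0.876 in the next (ratio 0.859). Sox2 in the wild-type B2 lungs was at 22.1 CPM in replicate 5, with the next at 8.01 (ratio 0.764), in the library that also had the highest cartilage and epithelial genes of the 12 lungs. Sox8 in the homozygous B2 lungs was at 12 CPM in replicate 4, with the next at 9.07 (ratio 0.684). No cause was tested for any of them.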

How the results depend on the processing

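No paired analysis was possible because the labels give no replicate numbers for these libraries, which were numbered in accession order. The code in the titles of the B2 lungs joins several lungs of both genotypes, and with it as a term no member was called by edgeR, with Sox9 at -0.44 (-0.45 with sex as a term, -0.46 with neither). Over all alternatives other than leaving out a library, 123 of 137 counts of called members stayed within 1.5 times their value, and 365 of 383 single log2 fold changes, of members called or with an unadjusted p under 0.05, kept their direction and their side of the threshold, with none reversed. Without 1 library, 304 of 320 counts and 1314 of 1360 fold changes did so.

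Where a genotype comparison had 0 calls, DESeq2 gave 1 in B3 heart and 1 in B6 heart, dropping the filter gave 1 in B4 gut and 4 in B6 face, and the joint fit of 64 libraries gave 2 for the hearts of B5, 1 for those of B6 and 1 for those of B7. With B2 controls alone the count was 1 in B6 heart and 2 in B7 heart, and with B5 controls alone 2 and 3. Forebrain against midbrain went from 1 to 2 in the joint fits of 64 and 63 libraries, and the 3 contrasts between heart lines from 10 to 6 with library totals alone. The fit of 63 libraries, the fit without lung replicates 5 and 6 and the library totals were chosen after seeing the data.

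Leaving out each library in turn gave 0 to 1 calls in B3 heart, B4 gut, B5 face and B8 neural tube, 0 to 2 in B4 midbrain, 0 to 3 in B7 face, 0 to 4 in B6 face and 0 to 6 in B5 heart. The deciding libraries were wild-type replicate 1 in B3 heart, B4 gut and B6 face (with homozygous replicate 1 there), wild-type replicate 2 in B5 face, homozygous replicate 1 in B4 midbrain, homozygous replicate 2 in B5 heart and B8 neural tube, and either homozygous replicate in B7 face. The count was 3 to 6 in forebrain against neural tube (3 without any 1 of the 4 libraries), 3 to 7 in midbrain against neural tube, 115 to 128 over the 21 pairs, and 5 to 11 between heart lines (5 without wild-type B3 replicate 2). Sox10 in B2 against B3 hearts ranged from -3.85 to 0.58, the only reversal among these. Other members changed sign too, such as Sox3 in B7 face (0.21, and -0.67 without homozygous replicate 1). Where 1 library of a group remains, it is assumed to vary like the others. The causes were not tested. With 2 libraries in most groups, log2 differences under about 1 in low members were within the intervals, and Sox1, Sox14 and Sox21 in gut, lung and heart rest on few counts.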
